A study of Homo sapiens with 30 samples.

Results

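HT-29 is an established human colorectal carcinoma cell line that, like KM12C, carries a mutation in *APC*, a scaffold of the complex that marks beta-catenin for destruction. The comparison described here set 3 arrays of HT-29 cells treated with elraglusib against 3 arrays of HT-29 cells given the vehicle DMSO. These 6 arrays were chosen by the cell line and treatment in the sample labels, out of 30 arrays in the series. Elraglusib (9-ING-41) is a small-molecule inhibitor of both forms of the kinase GSK-3. The labels give a dose of 1 µM and a time of 24 h. The study's figure legend also gives 1 µM, but its results text describes the array dose as an inhibitory concentration without a value. The labels name no other agent or genetic change, and the model is 1 tumour line without immune or stromal cells. The other 24 arrays hold the same 2 arms, 3 arrays each, for the colorectal lines HCT-116 and KM12C and the lymphoid lines NK-92 and TALL-104. The 2 colorectal lines are used below only to test where the HT-29 response differed. Each array was labelled a biological replicate, and separate cultures were not stated, so p-values measure the spread between these samples, which may be technical.

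GSK-3 is active in resting cells and is switched off by WNT and growth factor signals. It phosphorylates beta-catenin, MYC, cyclins, SNAI1 and NF-kB pathway proteins, usually marking them for destruction, and it also has roles at the spindle and in glycogen synthesis. The levels below are log2 signals of probe sets on a whole-transcript array, so a difference of 1 is a doubling, and each gene is read through 1 probe set, the brightest of those that name it alone. Differences are elraglusib minus DMSO with the standard error (SE) and the adjusted p of limma over all 67528 probe sets, and "rose" and "fell" are used only at an adjusted p under 0.05.

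The 6 arrays had medians of 4.25 to 4.46, and arrays of 1 arm correlated at 0.989 to 0.993 against 0.951 to 0.959 between arms. The first principal component, with 74.4% of the variance, set the arms apart. Colorectal epithelial markers were present, with *KRT20* at 14.22 to 14.31 in DMSO and *CDH1*, E-cadherin, at 14.22 to 14.36, but *CDX2*, an intestinal transcription factor usually used as a marker of this lineage, read only 3.99 to 4.35 across the 6 arrays. Of 17 such markers, 1 rose and 2 fell. None of 16 markers of NK and T cells and none of 8 of fibroblasts and endothelium was called, and the NK and T cell markers had group means of 3.32 to 5.72.

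Among 22411 genes that a probe set named singly, 907 rose (4.05%) and 1299 fell (5.8%), together 9.84%. These shares are the background for each list count below. Bright genes were called more often. Of 5306 protein-coding genes with a DMSO mean over 8, replication-dependent histone genes left out, 431 rose and 710 fell. The largest falls were in histone genes, in *LGR5* and *SOX9*, and in *LYPLA2*, *FAM111B* and *ZNF830*. The largest rises were in small non-coding RNA genes, in members of repeated gene families and in *EGR1*, *FOSL1* and *CAPRIN2*. Groups of 3 arrays did not overlap, in either direction, for 27% of all genes, so a lack of overlap alone is common here. Over all probe sets the same rule called 3120 rises (4.62%) and 2288 falls (3.39%), together 8.01%, and a fold change over 1.5 with an unadjusted p under 0.05 passed 3370 (4.99%) and 2284 (3.38%), together 8.37%. The 907 rises of genes became 499 with elraglusib replicate 2 dropped and 534 with DMSO replicate 1 dropped, and the 1299 falls became 767 with DMSO replicate 2 dropped. The 5408 calls of probe sets became 3571 when elraglusib replicate 2 was dropped and 3442 when DMSO replicate 1 was, and the 2288 falls became 1387 with DMSO replicate 2 dropped.

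**Figure D1:**
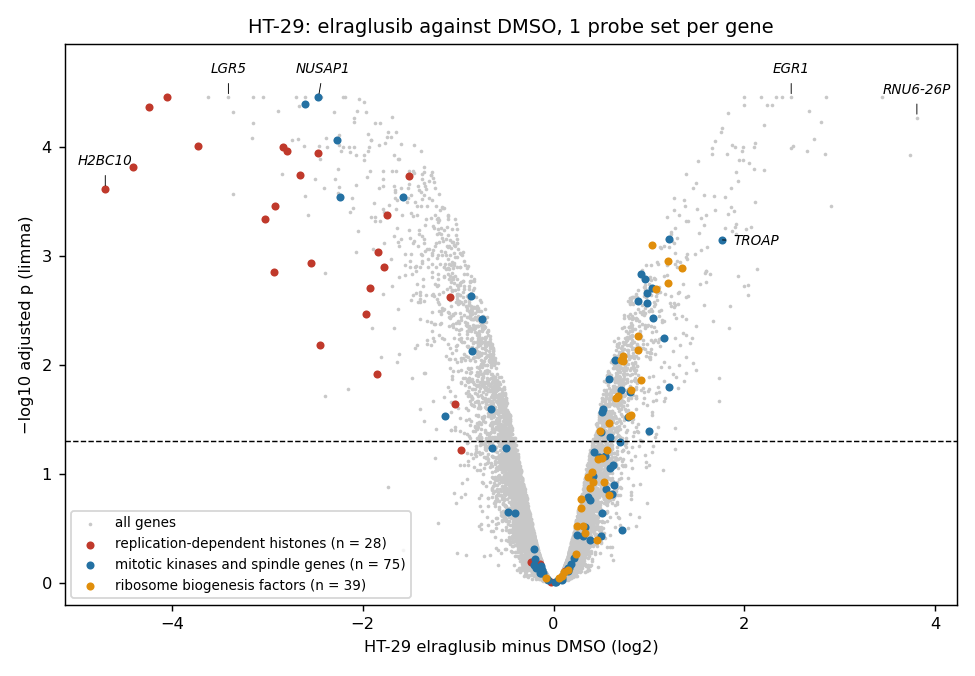
Each point is 1 of 22411 genes, with the log2 difference between HT-29 elraglusib and DMSO arrays (n = 3 each) on the x axis and −log10 of the limma adjusted p on the y axis. The dashed line marks an adjusted p of 0.05. Of the 28 histone genes 27 lie left of 0, the 39 ribosome biogenesis factors mostly on the right, and the 75 mitotic genes on both sides.

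Replication-dependent histone genes encode the bulk of the chromatin proteins made in S phase, when new DNA has to be packaged. Of 64 listed, 28 could be read singly, and 23 of these fell, none rose, with a median of −2.20 against −0.02 over all genes. *H2BC10* read 5.39, 5.87 and 7.10 in the elraglusib arrays and 11.42, 10.55 and 10.48 in the DMSO arrays, a 25.9-fold fall (−4.70, SE 0.42, adjusted p = 0.000242). *H2BC14* read 8.91, 8.24 and 9.84 in the elraglusib arrays and 13.72, 13.39 and 13.11 in the DMSO arrays (−4.41, SE 0.35, adjusted p = 0.000152). In both genes every treated array lay at least 3 log2 units under every control array. *H1-4*, a linker histone that binds DNA between nucleosomes, read 11.64, 11.37 and 12.32 in the elraglusib arrays and 16.34, 15.93 and 15.77 in the DMSO arrays (−4.24, SE 0.25, adjusted p = 4.24e-05). *H2AC21* read 7.35, 7.79 and 8.17 in the elraglusib arrays and 12.12, 11.56 and 11.79 in the DMSO arrays and fell 16.6-fold (−4.05, SE 0.22, adjusted p = 3.46e-05). The linker histone genes *H1-2* (−2.92), *H1-5* (−2.54) and *H1-3* (−1.84) and the core histone genes *H2BC17* (−3.73), *H2BC11* (−3.02), *H2AC13* (−2.83), *H2AC20* (−2.66) and *H4C3* (−2.45) also fell. The falls were not equal between arrays. Among the 23 genes, elraglusib replicate 3 had the highest of the treated values in 20 and DMSO replicate 1 the highest of the control values in 21 (87.0% and 91.3%, against 51.0% and 41.4% of all 1299 fallen genes).

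**Figure D2:**
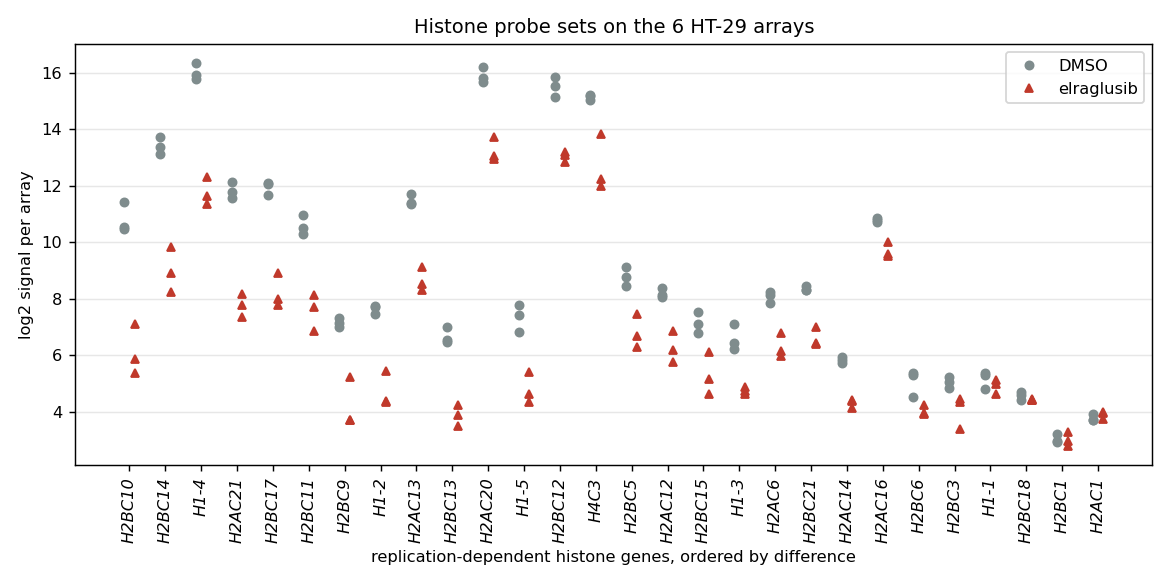
The log2 signal of each of 28 replication-dependent histone genes on every HT-29 array, with DMSO as grey circles and elraglusib as red triangles (n = 3 each). The genes are ordered by the difference between group means, from −4.70 for *H2BC10* to 0.12 for *H2AC1*, and the 5 genes that were not called had control values of 2.94 to 5.37.

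The 5 histone genes that were not called were *H2BC3* (−0.97, adjusted p = 0.0605), *H1-1*, *H2BC1*, *H2BC18* and *H2AC1*. The last 4 differed by −0.23 to 0.12. Of the 28, 24 lie in the histone clusters of chromosome 6 and 4 on chromosome 1, where 20 and 3 fell. Histone genes resemble each other closely in sequence, so a probe set named for 1 gene may also read its copies. In a culture, fewer cells in S phase and less histone RNA per cell cannot be told apart. The fall was kept by 21 to 23 genes when any 1 array was left out, and by 10 under a plain unpaired test without moderated variances.

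The promoters of histone genes carry short shared elements, of which the octamer ATTTGCAT of H2B genes is the best known, and they are shown for *H2BC10* and *H2BC14*, the 2 largest falls, and for *H2BC18*, an H2B gene whose level did not pass the test. The 120 bases before the transcription start are from RefSeq (GRCh38.p14), written on the gene's strand, with the octamer and the CCAAT upstream of it in capitals. *H2BC10* lies at chr6:26272811-26272930 (+), *H2BC14* at chr6:27814902-27815021 (+) and *H2BC18* at chr1:149812371-149812490 (−).
H2BC10: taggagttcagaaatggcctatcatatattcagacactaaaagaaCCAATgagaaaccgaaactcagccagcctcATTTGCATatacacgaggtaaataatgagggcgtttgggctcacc
H2BC14: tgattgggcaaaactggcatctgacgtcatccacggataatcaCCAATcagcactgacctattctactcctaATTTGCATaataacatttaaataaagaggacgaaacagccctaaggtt
H2BC18: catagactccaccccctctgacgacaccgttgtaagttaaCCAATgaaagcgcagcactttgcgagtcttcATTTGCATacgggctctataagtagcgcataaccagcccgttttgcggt

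The octamer begins 45, 48 and 49 bases before the start in these 3 promoters. RefSeq promoters were found for 26 of the 28 measured histone genes. With 250 bases searched on both strands, ATTTGCAT was present in 17 of the 26 and in 1.63% of 35116 promoters, TATAAA in 19 and 10.7%, and CCAAT in 26 and 32.0%. The octamer was found in 13 of the 21 fallen genes with a promoter and in 4 of the other 5. A match describes the letters and is no sign that a factor was bound.

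The histone response of HT-29 was compared with that of the other colorectal lines in 1 fit over all arrays. The 28 genes had a median of 0.17 in HCT-116, with 2 rises and no fall, and of −1.16 in KM12C, with 18 falls. The HT-29 response was lower than that of HCT-116 in 22 genes and lower than that of KM12C in 12, against 3.19% and 1.4% of all genes (4.81% and 2.66% in either direction, 4.02% and 1.86% of probe sets), and it was higher in none. Over all probe sets the KM12C comparison gave 1254 calls, which became 750 without HT-29 DMSO replicate 1, 699 without KM12C DMSO replicate 2 and 2460 without KM12C DMSO replicate 3. For *H1-4* the difference was −4.24 in HT-29, 0.13 in HCT-116 and −2.36 in KM12C (adjusted p = 1.64e-09 and 0.000928 for HT-29 against each). For *H2BC10* the KM12C value was −2.66 and the HCT-116 value −0.01 (adjusted p = 0.0353 and 1.41e-06).

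Factors that drive histone supply also changed. *NPAT*, the coactivator that switches on histone genes, read 9.59, 9.62 and 10.15 in the elraglusib arrays and 11.10, 11.21 and 11.18 in the DMSO arrays (−1.38, SE 0.16, adjusted p = 0.00111). Of 16 such factors, 5 fell and none rose, and the others were *CASP8AP2* (−1.07), needed at the histone locus body, and the chaperones *CHAF1B* (−1.10), *ASF1B* (−0.87) and *CHAF1A* (−0.56), which place new histones on DNA. *NPAT* differed by 0.05 in HCT-116 and −1.06 in KM12C (adjusted p = 8.1e-05 and 0.567 for HT-29 against each).

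Both cyclin E genes fell, and the E2F genes moved both ways. Cyclin E with CDK2 starts S phase, and E2F factors drive the genes needed for it. *CCNE2*, 1 of the cyclin E genes, read 6.37, 6.38 and 7.12 in the elraglusib arrays and 9.01, 9.34 and 9.01 in the DMSO arrays (−2.50, SE 0.21, adjusted p = 0.000196). *CCNE1*, the other, read 8.24, 8.21 and 8.14 in the elraglusib arrays and 9.91, 9.75 and 9.12 in the DMSO arrays (−1.40, SE 0.19, adjusted p = 0.00265). The 2 arms were well apart for both genes. *CDK2* fell by 1.13, and the factors *E2F7* (−1.72), *E2F8* (−1.40), *E2F1* (−0.97) and *E2F2* (−0.65) fell as well, while *E2F3* (0.67), *E2F5* (0.72) and *E2F4* (0.83) rose. E2F7 and E2F8 are repressors that limit E2F1. Of 19 cyclin, CDK and CDC25 genes 5 fell and 5 rose. All 5 that fell are named by the study from these arrays, and of the 14 others none fell and 5 rose. In HCT-116 *CCNE2* differed by 0.34 (adjusted p = 2.5e-06 against HT-29), and in KM12C by −1.53 (adjusted p = 0.153), so only the first comparison passed the test.

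Genes of replication proteins fell in part. Of 52 genes of origins and forks, 18 fell and 2 rose, with a median of −0.46. *MCM6*, a subunit of the replicative helicase, read 10.34, 10.43 and 10.60 in the elraglusib arrays and 12.52, 12.47 and 12.22 in the DMSO arrays (−1.95, SE 0.13, adjusted p = 7.59e-05). *MCM5* (−1.63), *MCM2* (−1.26), *MCM4* (−0.84) and *MCM3* (−0.75) of the same ring fell, and *MCM7* had −0.54 (adjusted p = 0.0636). The primase subunit *PRIM1* (−1.53), the checkpoint adaptor *CLSPN* (−1.31), the helicase partner *GINS2* (−1.21) and the sliding clamp *PCNA* (−0.88) fell. *ORC5*, a subunit of the origin recognition complex (0.74), and *DBF4*, the activator of the origin kinase CDC7 (0.67), rose. The 18 falls became 9 in a fit over all 30 arrays and 6 under the plain unpaired test. Among 26 recombination and Fanconi repair genes 8 fell and 1 rose. *BARD1*, the partner of BRCA1, read 7.08, 6.99 and 7.45 in the elraglusib arrays and 9.36, 9.59 and 9.31 in the DMSO arrays (−2.25, SE 0.15, adjusted p = 7.76e-05). *BRCA1* itself fell by 0.77 and *RAD51C* rose by 0.65.

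Mitotic genes moved both ways. Of 75 genes of mitotic kinases, kinesins, kinetochores and the spindle, 21 rose and 10 fell, with a median of 0.33. Of all genes 4.05% rose and 5.8% fell. The list was bright, with a median DMSO mean of 11.19, and its share of falls was near that of the bright genes given above. The largest falls exceeded the largest rises in size. *UBE2C*, the ubiquitin-conjugating enzyme of the anaphase-promoting complex, read 7.81, 7.71 and 7.93 in the elraglusib arrays and 10.66, 10.43 and 10.17 in the DMSO arrays (−2.60, SE 0.15, adjusted p = 4.03e-05). *NUSAP1*, which bundles spindle microtubules, read 11.77, 11.78 and 12 in the elraglusib arrays and 14.32, 14.38 and 14.24 in the DMSO arrays (−2.46, SE 0.12, adjusted p = 3.46e-05). *TOP2A*, the topoisomerase that untangles sister chromatids, read 11.98, 12.12 and 12.57 in the elraglusib arrays and 14.44, 14.54 and 14.51 in the DMSO arrays (−2.27, SE 0.16, adjusted p = 8.63e-05). In these 3 genes every treated array lay below every control array. *FAM83D*, a spindle protein, fell by 2.23 and *BUB3*, of the spindle checkpoint, by 1.58. *CDK1*, the mitotic kinase, fell by 1.44 and its activating phosphatase *CDC25C* by 1.37.

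In the same arrays other genes of late G2 and mitosis rose. *CCNB1*, the cyclin B that activates CDK1, read 14.91, 14.96 and 14.63 in the elraglusib arrays and 13.68, 13.70 and 13.54 in the DMSO arrays (1.19, SE 0.13, adjusted p = 0.000694). *AURKA*, the centrosome kinase, read 14.01, 14.10 and 13.84 in the elraglusib arrays and 12.87, 12.86 and 12.59 in the DMSO arrays (1.21, SE 0.13, adjusted p = 0.000699). *TROAP*, a spindle-associated protein, had the largest rise of the list (1.77, SE 0.19, adjusted p = 0.000707), with 9.18, 9.41 and 8.70 in the elraglusib arrays and 7.42, 7.46 and 7.10 in the DMSO arrays. The cyclins *CCNB2* (0.83) and *CCNA2* (0.64), the anaphase activator *CDC20* (1.05), the kinesins *KIF14* (1.15), *KIF20A* (1.03) and *KIF18A* (0.98) and the centromere histone *CENPA* (0.91) rose. *PLK1* had 0.70 (adjusted p = 0.0512). So cyclin B rose while the kinase that it binds fell. The 21 rises were 12 with array medians subtracted, 10 in a fit over all 30 arrays, 6 under the plain unpaired test and 11 without elraglusib replicate 2.

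The mitotic list had a median of −0.53 in HCT-116, where none rose and 24 fell, and of −0.04 in KM12C, where 3 rose and 6 fell. The HT-29 response was higher than that of HCT-116 in 14 of the genes and lower in 5, against 1.62% and 3.19% of all genes, and against KM12C it was lower in 1 gene and higher in none (1.26% of all genes were higher). *CENPA* showed the contrast, with 0.91 in HT-29, −0.66 in HCT-116 and 0.42 in KM12C (adjusted p = 0.00042 and 0.471). *UBE2C* differed by −0.24 in HCT-116 and −1.67 in KM12C (adjusted p = 0.000349 and 0.304). Of 20 tubulin genes and their regulators, close copies of which may share probes, 4 fell, with *TUBB* at −1.20 and *TUBA1C* at −0.74, and 2 rose.

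**Figure D3:**
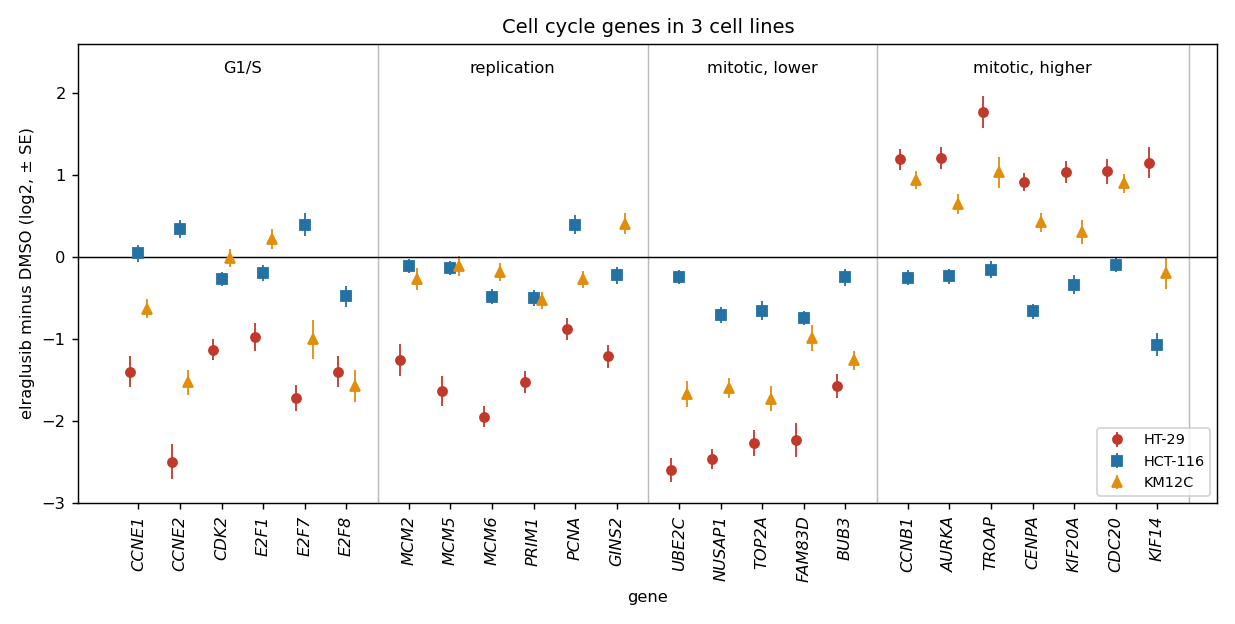
Log2 difference between elraglusib and DMSO (± SE, n = 3 arrays per arm) for 24 cell cycle genes in HT-29 (red circles), HCT-116 (blue squares) and KM12C (orange triangles), each from the fit of its own line. *CCNE2* stood at −2.50, 0.34 and −1.53 and *CENPA* at 0.91, −0.66 and 0.42 in the 3 lines.

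The brakes of the cycle did not move as 1 group. *CDKN1B*, the inhibitor p27 of cyclin E with CDK2, read 7.47, 7.41 and 7.51 in the elraglusib arrays and 8.90, 8.93 and 8.71 in the DMSO arrays (−1.38, SE 0.11, adjusted p = 0.000175). *CDKN1A*, the inhibitor p21, read 7.68, 7.41 and 7.68 in the elraglusib arrays and 6.91, 6.87 and 7.05 in the DMSO arrays (0.65, SE 0.12, adjusted p = 0.0141), and it was called in 3 of the 6 fits that left out 1 array. The retinoblastoma family genes *RB1* (−0.68), *RBL1* (−0.95) and *RBL2* (−0.49) fell, of which *RBL1* was called in all 6 of those fits, *RB1* in 3 and *RBL2* in 0. Among 39 p53 target genes 6 rose and 2 fell, with a median of 0.02, close to that of all genes. Besides *CDKN1A*, these were *AEN*, a nuclease linked to apoptosis (1.27), *TRIAP1* (0.82), the p53 regulators *MDM4* (0.69) and *MDM2* (0.65) and the metabolic enzyme *TIGAR* (0.63), while *BTG1* (−1.06) and *CCNG1* (−0.67) fell. In HCT-116, 31 of the 39 rose, with a median of 1.18, and the HT-29 response was lower in 15 and higher in 1. *MDM2* had 2.08 in HCT-116, and its difference between the lines did not pass the test (adjusted p = 0.126).

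Genes around beta-catenin were next. Of 20 genes of the destruction complex and its regulators 1 rose (*DVL1*, 0.64) and 1 fell (*TNKS2*, −0.46). Of 34 WNT target genes none rose and 9 fell, with a median of −0.08, and 25 were not called. *LGR5*, the stem cell receptor for R-spondins that strengthens WNT signals, read 6.70, 6.98 and 7.45 in the elraglusib arrays and 10.35, 10.52 and 10.48 in the DMSO arrays, a 10.6-fold fall (−3.41, SE 0.18, adjusted p = 3.46e-05). *SOX9*, a transcription factor of the crypt base, read 9.79, 9.53 and 10.39 in the elraglusib arrays and 13.28, 13.29 and 13.23 in the DMSO arrays, a 10.3-fold fall (−3.36, SE 0.20, adjusted p = 4.74e-05). The control arrays lay close together in both genes, and elraglusib replicate 3 stood highest of the treated arrays. *AXIN2*, the feedback inhibitor most often used as a readout of beta-catenin, read 8.23, 8.49 and 8.41 in the elraglusib arrays and 8.31, 8.63 and 8.21 in the DMSO arrays (−0.01, SE 0.14, adjusted p = 0.994), and its groups overlapped. *MYC* fell by 0.57 (adjusted p = 0.0314, called in 1 of 6 fits that left out an array), *ETS2* by 1.69 and *KREMEN1* by 0.94. The 9 falls became 5 in the fit over all 30 arrays, under the plain unpaired test and when any of elraglusib replicate 2, DMSO replicate 1 and DMSO replicate 2 was dropped. *LGR5* was at 0.31 in HCT-116 (adjusted p = 2.18e-10 for HT-29 against it) and −2.69 in KM12C (adjusted p = 0.121), and *SOX9* at −0.27 (adjusted p = 1.01e-08) and −2.49 (adjusted p = 0.071).

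Immediate-early genes, which growth factors switch on within minutes, split into a few rises and more falls, with 3 of 29 up and 9 down, or 3 up and 5 down among the 25 that the study does not name from these arrays. *EGR1*, a zinc finger factor of this class, read 11.33, 11.26 and 11.20 in the elraglusib arrays and 8.84, 8.75 and 8.73 in the DMSO arrays (2.49, SE 0.11, adjusted p = 3.46e-05). *FOSL1*, a partner in the AP-1 factor, read 8.09, 8.23 and 8.01 in the elraglusib arrays and 6.17, 6.12 and 6.05 in the DMSO arrays (2.00, SE 0.11, adjusted p = 4.05e-05). Both were tight within each arm. *TRIB1*, a pseudokinase that targets C/EBP proteins for destruction, read 8.34, 8.39 and 9.11 in the elraglusib arrays and 11.74, 11.87 and 11.69 in the DMSO arrays (−3.15, SE 0.20, adjusted p = 6.02e-05). *KLF6* read 8.29, 8.25 and 9.08 in the elraglusib arrays and 11, 10.98 and 10.87 in the DMSO arrays (−2.41, SE 0.21, adjusted p = 0.000235). The AP-1 members *JUNB* (−1.87), *JUND* (−1.07) and *FOS* (−0.80) and the repressor *BCL6* (−1.77) fell, and *SRF* rose by 0.64. *EGR1* had −0.61 in KM12C (adjusted p = 4.55e-05 for HT-29 against it) and 1.47 in HCT-116 (adjusted p = 0.215). *BCL6* had 0.65 in HCT-116 (adjusted p = 2.56e-09) and −0.48 in KM12C (adjusted p = 9.56e-05).

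Of 12 genes of the DUSP, SPRY and SPRED families, feedback inhibitors of growth factor signalling, 4 fell and none rose, and the 8 others lay between −0.39 and 0.28. *DUSP6*, the phosphatase that turns off ERK, read 6.71, 6.83 and 7.45 in the elraglusib arrays and 9.58, 9.71 and 9.55 in the DMSO arrays (−2.62, SE 0.19, adjusted p = 9.75e-05). *SPRY1*, a Sprouty inhibitor of the RAS pathway, read 5.67, 5.77 and 5.87 in the elraglusib arrays and 7.78, 7.79 and 7.71 in the DMSO arrays (−1.99, SE 0.11, adjusted p = 3.79e-05). *SPRY2* (−0.74), the receptor *ERBB3* (−1.35), *PHLDA1* (−0.69), *ETV1* (−0.65) and *DUSP1* (−0.54) fell too, whereas the receptor *EGFR* (0.91) and its ligands *TGFA* (0.74) and *HBEGF* (0.64) rose. With *FOSL1*, 4 of 31 genes of the ERK list rose and 7 fell, with a median of −0.03.

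Of 42 genes of the NF-kB system, 10 fell and 4 rose, against 5.8% and 4.05% of all genes, with a median of −0.07. *MAP3K1*, an upstream kinase, read 8.75, 8.85 and 9.05 in the elraglusib arrays and 11.43, 11.57 and 11.47 in the DMSO arrays (−2.61, SE 0.12, adjusted p = 3.46e-05). *NFKBIA*, the inhibitor IkB-alpha that NF-kB itself induces, read 7.05, 7.20 and 8.12 in the elraglusib arrays and 10.05, 10.12 and 9.91 in the DMSO arrays (−2.57, SE 0.25, adjusted p = 0.000417). *NFKBIZ* (−1.23) and the receptor *TNFRSF11A* (−1.15) fell, while the inhibitor *TNFAIP3* (0.53) and the kinase *CHUK* (0.53) rose. *NFKBIA* and *TNFAIP3* are both genes that NF-kB is known to induce, but 2 members do not give the output of the pathway, which was not tested. For *MAP3K1* the values were −0.12 in HCT-116 and −0.80 in KM12C (adjusted p = 2.76e-09 and 1.18e-06 for HT-29 against each). Of 27 chemokine and cytokine genes only *CXCL16* rose (0.55) and only *VEGFA* fell (−0.82). *CXCL16* was called in 0 of the 6 fits that left out an array. The median DMSO mean of these genes was 4.39, within the array medians of 4.25 to 4.46, so many had little signal to lose.

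**Figure D4:**
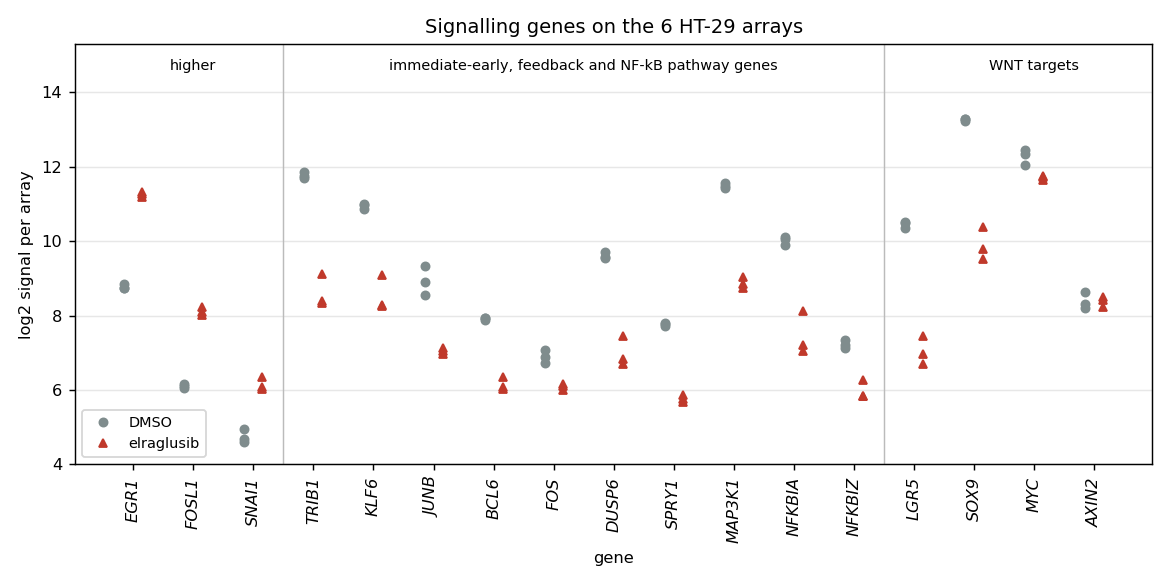
The log2 signal of 17 signalling genes on every HT-29 array, with DMSO as grey circles and elraglusib as red triangles (n = 3 each). *EGR1*, *FOSL1* and *SNAI1* lay higher after treatment, the genes from *TRIB1* to *MYC* lower, and the groups of *AXIN2* overlapped.

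In the TGF-beta pathway 3 of 30 genes rose and 7 fell, against 4.05% and 5.8% of all genes. *TGFBR3*, the co-receptor betaglycan, read 6.25, 6.27 and 6.46 in the elraglusib arrays and 8.56, 8.52 and 8.45 in the DMSO arrays (−2.18, SE 0.11, adjusted p = 3.46e-05). The induced inhibitors *PMEPA1* (−1.21) and *SMAD7* (−0.80) fell, and *TGFB2*, a ligand (0.94), and *SMAD3*, the signal carrier (0.81), rose. Of 31 genes of the epithelial to mesenchymal transition, 2 rose and 4 fell, and 2 of the falls are genes named by the study. Both shares were near those of the bright genes given above. *SNAI1*, a repressor of E-cadherin and a known GSK-3 substrate as a protein, read 6.02, 6.35 and 6.08 in the elraglusib arrays and 4.69, 4.94 and 4.60 in the DMSO arrays (1.41, SE 0.14, adjusted p = 0.000473). *CDH1* fell by 0.60 (adjusted p = 0.0259) but was called in only 1 of 6 fits that left out an array, *ITGB6* fell by 1.11, and the mesenchymal marker *VIM* stayed at 4.79 to 4.94 in all 6 arrays.

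Among 27 proapoptotic genes 2 rose and 6 fell, against 4.05% and 5.8% of all genes. *TNFSF10*, the death ligand TRAIL, read 4.91, 4.92 and 5.12 in the elraglusib arrays and 6.90, 7.12 and 7.10 in the DMSO arrays (−2.06, SE 0.12, adjusted p = 4.62e-05). *APAF1*, the core of the apoptosome, fell by 1.05 and *BCL2L11*, the BH3 protein BIM, by 0.62, although another probe set of that gene gave 0.54. *AEN* read 9.15, 9.11 and 8.83 in the elraglusib arrays and 7.97, 7.93 and 7.39 in the DMSO arrays (1.27, SE 0.18, adjusted p = 0.0027), and *CYCS*, cytochrome c, rose by 0.55. Of 16 antiapoptotic genes 5 fell, the kinases *SGK1* (−0.91) and *PIM1* (−0.95), *TRIB1*, *BCL6* and *MCL1* (−0.49), and 2 rose, *TNFAIP3* and *BIRC5* (0.59). Of those 5, all but *MCL1* are genes that the study names from these arrays. Of the 12 members that it does not name 1 fell and 2 rose. *MCL1* and *BIRC5* were each called in only 1 of the 6 fits that left out an array. The study picked 34 genes by name from these same HT-29 arrays, so their counts are not independent evidence of direction. Of these 34, 31 were read here, of which 7 rose, 20 fell and 4 did not pass, and 21 stayed called whichever array was left out. The 4 were *TNFRSF12A* (0.78, adjusted p = 0.313), *SFN* (0.50, adjusted p = 0.341), *CDCA3* (−0.64, adjusted p = 0.0575) and *PDS5B* (−0.44, adjusted p = 0.137). *TNFRSF12A*, the TWEAK receptor, read 14.87, 14.66 and 13.67 in the elraglusib arrays and 14.21, 13.69 and 12.97 in the DMSO arrays. *SOCS7* (0.77), *BCCIP* (0.74) and *CRLF3* (0.69), named as anti-proliferative, rose. *EAPP* (−0.79), *JAK1* (−0.69) and *TNIK* (−0.63), named for proliferation, fell, as did *UHRF1* (−0.90), *CDC45* (−0.82), *DYNC1H1* (−0.76), *MTA3* (−0.90) and *AGGF1* (−0.88).

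NK cell killing depends on ligands that a tumour cell shows. Of 23 genes listed as such, which mix activating and inhibitory ligands, 3 rose and 3 fell, against 4.05% and 5.8% of all genes. *NCR3LG1*, which encodes B7-H6, the ligand of the activating receptor NKp30, read 7.79, 8.25 and 8.06 in the elraglusib arrays and 6.64, 7.13 and 6.55 in the DMSO arrays (1.26, SE 0.18, adjusted p = 0.00336), all treated arrays above all controls. *PVR* (0.83, adjusted p = 0.0442) and *CD55* (0.70) rose, and *HLA-E* (−0.74), *CD58* (−0.47) and *PCNA* fell. *CD55* is better known as a regulator of complement, and *PCNA* is also counted with the replication genes above. *CD58* was called in only 1 of the 6 fits that left out an array. *CD274*, which encodes PD-L1, read 6.61, 7.12 and 6.94 in the elraglusib arrays and 6.40, 6.80 and 6.30 in the DMSO arrays (0.39, SE 0.18, adjusted p = 0.293). Of 35 genes of antigen processing and checkpoint ligands none rose and 4 fell, *JAK1*, *HLA-E*, *IRF1* (−0.53) and *LGALS9* (−0.70). Of all genes 4.05% rose and 5.8% fell. *IRF1* and *LGALS9* were each called in only 1 of the 6 fits that left out an array.

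Ribosome biogenesis takes place in the nucleolus and needs assembly factors, helicases and RNA polymerase I. Of 39 such genes 18 rose and none fell, with a median of 0.53. *RRS1*, an assembly factor of the large subunit, read 12.28, 12.50 and 12.63 in the elraglusib arrays and 11.07, 11.42 and 10.89 in the DMSO arrays (1.34, SE 0.16, adjusted p = 0.00129). *DDX10*, a nucleolar helicase, read 13.25, 13.37 and 13.65 in the elraglusib arrays and 12.12, 12.38 and 12.17 in the DMSO arrays (1.20, SE 0.14, adjusted p = 0.0011). *LYAR* (1.20), *WDR43* (1.08), *UTP15* (1.03), *NOP58* (0.92), a core protein of C/D box snoRNPs, and *POLR1E* (0.89), a subunit of RNA polymerase I, rose as well. In HCT-116 2 of the 39 rose and in KM12C none, with medians of 0.22 and 0.18, and the HT-29 response was higher than that of HCT-116 in 1 gene and differed from that of KM12C in none. The 18 rises were 11 with array medians subtracted, 9 in the fit over all 30 arrays, 1 under the plain unpaired test and 11 without elraglusib replicate 2.

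Amino acid genes of the integrated stress response, which ATF4 drives, had 6 falls and no rise among 37. Of all genes 5.8% fell and 4.05% rose. The list was bright, with a median DMSO mean of 10.35, and its share of falls was only a little above that of the bright genes given above. *PSAT1*, an enzyme of serine synthesis, read 11.97, 11.79 and 12.20 in the elraglusib arrays and 14.07, 14.28 and 13.83 in the DMSO arrays (−2.07, SE 0.16, adjusted p = 0.000117). *SLC38A2*, an amino acid transporter, read 12.51, 12.28 and 13.28 in the elraglusib arrays and 14.64, 14.90 and 14.74 in the DMSO arrays (−2.07, SE 0.24, adjusted p = 0.000916). *PHGDH* (−0.73), *MTHFD2* (−1.05) and *DDIT4* (−1.55) fell, and *DDIT3*, the stress factor CHOP, had 0.54 (adjusted p = 0.0605). Of 30 glycolysis and hypoxia genes 8 fell, with *TXNIP* at −1.23, *ALDOC* at −0.92 and *PDK1* at −0.69, and 1 rose (*ARRDC4*, 0.96).

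Other large falls lay outside these lists. *LYPLA2*, a thioesterase that removes palmitate from proteins, read 8.17, 8.05 and 8.45 in the elraglusib arrays and 12.17, 11.85 and 11.51 in the DMSO arrays (−3.62, SE 0.18, adjusted p = 3.46e-05). *FAM111B*, a protease, read 8.77, 9.26 and 10.19 in the elraglusib arrays and 12.66, 12.84 and 12.80 in the DMSO arrays (−3.36, SE 0.30, adjusted p = 0.000268), with elraglusib replicate 3 the highest of the treated arrays. *SLC40A1*, ferroportin, the only known exporter of iron from cells, read 6.83, 7.12 and 7.30 in the elraglusib arrays and 10.12, 10.26 and 9.99 in the DMSO arrays (−3.04, SE 0.15, adjusted p = 3.46e-05). *ZNF830* (−3.16) and *TRIR* (−3.15) fell by a similar size. *WEE1*, the kinase that holds CDK1 inactive, read 8.30, 8.17 and 8.73 in the elraglusib arrays and 11.07, 11.04 and 11.10 in the DMSO arrays (−2.67, SE 0.15, adjusted p = 4.18e-05), and it was picked after its value was seen. *FAM111B* had 0.17 in HCT-116 and −0.30 in KM12C (adjusted p = 4.24e-07 and 1.26e-05 for HT-29 against each). By contrast, *LYPLA2* (−1.31), *ZNF830* (−1.46), *TRIR* (−1.24) and *SLC40A1* (−1.17) fell in KM12C too, by less than in HT-29. None of these was called in HCT-116. The largest rise of a protein-coding gene was that of *CAPRIN2*, an RNA-binding protein linked to WNT receptor phosphorylation, with 11.13, 11.34 and 11.31 in the elraglusib arrays and 8.47, 8.91 and 8.38 in the DMSO arrays (2.67, SE 0.16, adjusted p = 4.61e-05). It had 0.12 in HCT-116 and 0.44 in KM12C (adjusted p = 3.01e-07 and 8.31e-06).

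The strongest rises of all were in small RNA genes. Small nucleolar RNAs guide chemical changes of ribosomal RNA and are cut from introns of longer genes, U6 RNA is part of the spliceosome, and microRNAs are cut from hairpins and repress messenger RNAs. *RNU6-26P*, a U6 pseudogene, read 14.88, 15.21 and 15.74 in the elraglusib arrays and 11.18, 11.42 and 11.81 in the DMSO arrays (3.81, SE 0.23, adjusted p = 5.34e-05). *SNORD11B* read 9.36, 9.74 and 9.84 in the elraglusib arrays and 5.95, 6.52 and 5.27 in the DMSO arrays (3.73, SE 0.28, adjusted p = 0.000117). *MIR644A* read 10.33, 10.08 and 10.39 in the elraglusib arrays and 6.51, 7.19 and 6.77 in the DMSO arrays (3.44, SE 0.18, adjusted p = 3.46e-05). The 3 genes did not overlap between arms by a wide margin. Of 1041 microRNA genes 66 rose, 15 fell and 960 were not called, with a median of 0.02. Of 64 H/ACA box snoRNAs 14 rose and 4 fell, and of 174 C/D box snoRNAs 14 rose and 15 fell. Of 215 spliceosomal U RNA genes and their copies 40 rose and 9 fell. Over all genes 4.05% rose and 5.8% fell, with a median of −0.02. A probe set over such a gene reads the hairpin, the mature form and any longer transcript through it alike.

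Many small RNA genes lie inside longer genes, whose strand the reference used here does not give. For 106 of the 161 small RNA genes that rose, a longer gene around it was measured. That gene rose for 16, fell for 10 and was not called for 80, with a median of 0.10 against 1.14 for the small RNAs. For 8 risen C/D box snoRNAs with such a gene, it rose for 7 and fell for 1, and *NOP58* around *SNORD11B* is among the 7. These are counts of snoRNAs, so a gene around several of them is counted each time. For 5 fallen C/D box snoRNAs the surrounding gene was not called in any case. For 13 risen H/ACA box snoRNAs it rose for 2 and was not called for 11. *MIR644A* lies within *ITCH*, which differed by 0.01 (adjusted p = 0.988), and *MIR558*, which rose by 2.39, lies within *BIRC6* (−0.06, adjusted p = 0.886).

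**Figure D5:**
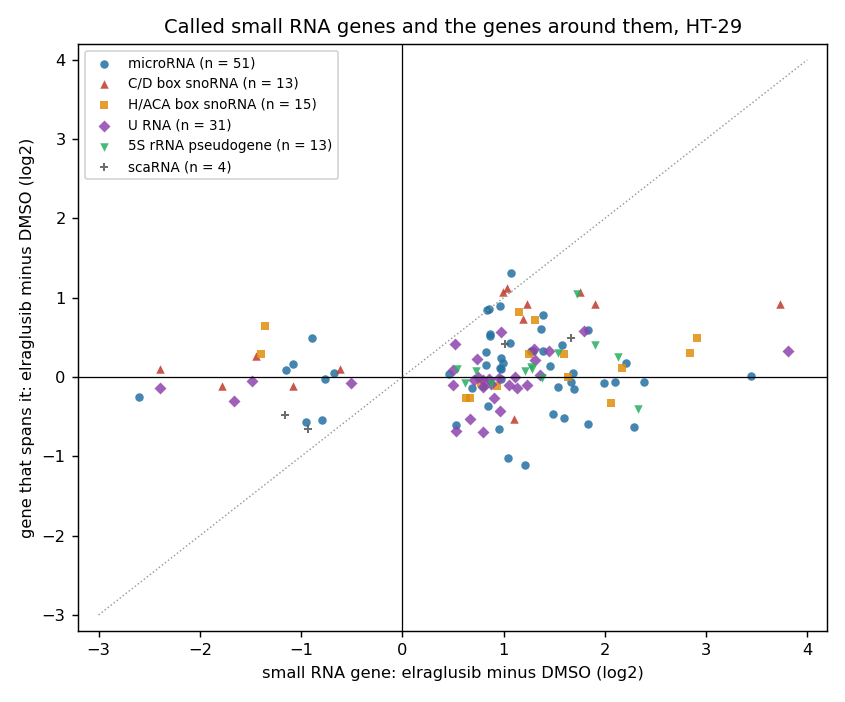
Each point is a small RNA gene called in HT-29 that lies within a measured longer gene, with its own log2 difference (elraglusib minus DMSO) on the x axis and that of the longer gene on the y axis. The dotted line marks equal differences. Most points lie near 0 on the y axis, and the red triangles of the risen C/D box snoRNAs lie mostly above it.

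The 42 measured genes of the *MIR548* family, which sit on 18 chromosomes and derive from a repeated mobile element, rose in 27 cases and fell in none, with a median of 1.13. The family was picked after its values were seen. *MIR548X* read 12.28, 11.71 and 11.97 in the elraglusib arrays and 9.24, 9.69 and 9.06 in the DMSO arrays (2.66, SE 0.20, adjusted p = 0.000107). *MIR548G* read 15.66, 15.63 and 15.64 in the elraglusib arrays and 13.78, 14.03 and 13.81 in the DMSO arrays (1.77, SE 0.12, adjusted p = 6.69e-05). Of the 22 members with a DMSO mean over 8, 21 rose, and of the 20 at or under 8, 6 did. The HT-29 response was higher than that of HCT-116 in 24 of the 42 and higher than that of KM12C in 5. Over all genes these shares were 1.62% and 1.26%. In KM12C the family had a median of 0.53 and no member was called. Copies of the element elsewhere in the genome may be read by the same probes and were not told apart. Among the 81 called microRNA genes, 60 had a mature sequence in RefSeq (GRCh38.p14), and 2 seeds, the bases 2 to 8 that select targets, were chosen for display because several called genes share them. The first is that of *MIR548X*, *MIR548G*, *MIR548AJ2* and *MIR548F1*, all of which rose, and the sequences are given with the seed in capitals. They lie at chr21:18686135-18686157, chr4:147344681-147344703, chrX:38023949-38023971 and chr10:54607926-54607947 in that order, all on the minus strand.
hsa-miR-548x-5p: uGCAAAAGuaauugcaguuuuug
hsa-miR-548g-5p: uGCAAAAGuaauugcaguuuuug
hsa-miR-548aj-5p: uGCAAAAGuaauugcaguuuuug
hsa-miR-548f-5p: uGCAAAAGuaaucacaguuuuu

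The second is that of the 2 microRNA genes with the largest falls, *MIR590* and *MIR21*, the latter a microRNA that is abundant in many tumours. Their mature sequences lie at chr7:74191213-74191234 and chr17:59841273-59841294, both on the plus strand.
hsa-miR-590-5p: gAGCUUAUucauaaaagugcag
hsa-miR-21-5p: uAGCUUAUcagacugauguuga

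*MIR590* read 4.82, 5.23 and 5.71 in the elraglusib arrays and 7.78, 8.20 and 7.59 in the DMSO arrays (−2.60, SE 0.24, adjusted p = 0.00028). *MIR21* read 4.06, 4.41 and 4.78 in the elraglusib arrays and 6.78, 6.88 and 6.47 in the DMSO arrays (−2.29, SE 0.19, adjusted p = 0.000195). In both, elraglusib replicate 3 was the highest of the treated arrays and still lay below every control array. *EIF4H*, which spans *MIR590*, had −0.25 (adjusted p = 0.408). *MIR29A*, whose mature form represses collagens and MCL1, fell by 1.90. *MIR21* had 0.58 in HCT-116 and −0.30 in KM12C (adjusted p = 0.000211 and 0.0181 for HT-29 against each).

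Members of several families of recent gene duplicates rose. They share most of their sequence, so their probe sets may read the same transcripts and were not told apart. These families too were picked after their values were seen, and not all rose whole, with 5 of 9 *AGAP* genes and 1 of 11 *GOLGA8* genes up. All 6 *NPIP* genes on chromosome 16 rose, from 1.07 to 2.11, and so did all 4 *SMG1* pseudogenes, with a median of 1.98. *SMG1P1* read 14.53, 14.57 and 14.48 in the elraglusib arrays and 12.14, 12.69 and 12.41 in the DMSO arrays (2.11, SE 0.15, adjusted p = 9.01e-05). *NPIPB11* read 14.06, 14.38 and 14.75 in the elraglusib arrays and 12.06, 12.56 and 12.25 in the DMSO arrays (2.11, SE 0.20, adjusted p = 0.000318). On chromosome 10 *AGAP7P* read 13.13, 13.43 and 13.31 in the elraglusib arrays and 10.27, 10.87 and 10.33 in the DMSO arrays (2.80, SE 0.18, adjusted p = 5.82e-05), and *AGAP4* rose by 2.51. Among 453 genes named *ZNF*, zinc finger factors that mostly repress transcription, 57 fell and 7 rose, against 5.8% and 4.05% of all genes.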

How the data were processed

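RNA of each sample was hybridised to a GeneChip Human Transcriptome Array 2.0. The authors deposited log2 signal values, 1 per probe set and array, and used Transcriptomic Analysis Console. For software version, background correction and normalization, nothing was found in the labels, methods or headers. The assays were run in 2 randomised batches and RNA was isolated in batches of 6. The arrays of each batch are not given, so their part in any difference was not tested. The number of arrays limits the precision.

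The values were used as deposited. The 6 HT-29 arrays were fitted with limma 3.58.1 in R 4.3.3 (lmFit, eBayes), with Benjamini-Hochberg adjustment over 67528 probe sets and a call at an adjusted p under 0.05. HCT-116 and KM12C differences came from the same fit of their own 6 arrays, and differences between lines from 1 fit over 30 arrays. The script was tested on simulated data. Platform annotation gave 1 symbol for 23781 probe sets, several for 1543 and none for 42204. Symbols were updated through the RefSeq gene table of GRCh38.p14. A gene with several probe sets was read through the one with the highest mean. Alternatives covered scaling, a filter on dim probe sets, moderation, array weights, the samples in the fit, the replicate block and leaving out each array.

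Genes were named by a rule: those the study names for HT-29, the 15 largest rises and 15 largest falls without overlap (6 each for small RNA and uncharacterised genes), up to 8 members of each list by p, every member of a list of 20 or fewer, and markers. Further list members and members that were not called were added after their values were seen. Members and lists were chosen with earlier results of these data known.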

Additional observations from a re-analysis of the deposited data

Results flagged for a closer look

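The elraglusib response of HT-29 differed from that of another colorectal line for the genes below, by a limma test of the difference itself with adjustment over all probe sets. Differences below are the HT-29 response minus the response of the other line, on the log2 scale, with 3 arrays in each arm of each line. The contrasts share the HT-29 arrays with the comparison described above, so they are no separate evidence for it.

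Against HCT-116, the HT-29 response was lower for the histone genes *H2BC10* (−4.69) and *H1-4* (−4.37), for their coactivator *NPAT* (−1.43) and for the cell cycle genes *CCNE2* (−2.84) and *UBE2C* (−2.36). The same held for *LGR5* (−3.72), *SOX9* (−3.10), *MAP3K1* (−2.48), *BCL6* (−2.42), *FAM111B* (−3.53) and *MIR21* (−2.87). It was higher for *CAPRIN2* (2.56) and *CENPA* (1.58), and *CENPA* fell in HCT-116. None of the 11 genes that were lower was called as a fall in HCT-116 itself.

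Against KM12C, the HT-29 response was lower for *H2BC10* (−2.04), *H1-4* (−1.88), *MAP3K1* (−1.80), *BCL6* (−1.29), *FAM111B* (−3.06) and *MIR21* (−1.99). It was higher for *CAPRIN2* (2.23) and *EGR1* (3.10), neither of which was called in KM12C. *MDM2* passed neither test.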

How the results depend on the processing

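Over all probe sets the 5408 calls (3120 rises, 2288 falls) were 8612 (4844 and 3768) with array weights, 3107 (1345 rises) with a single probe set per gene, which tests fewer features, and 1378 (675 and 703) under a plain unpaired test. Leaving out 1 array gave 3442 to 4993 calls, 2022 to 2660 rises and 1387 to 2333 falls. No called probe set changed sign under any of these settings, in quantile normalization, median subtraction, the filter on dim probe sets, eBayes with trend, the fit over all 30 arrays or the replicate block.

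The plain unpaired test left 10 fallen histone genes, 6 fallen replication genes, 6 risen mitotic genes, 5 fallen WNT targets and 1 risen ribosome biogenesis gene. The fit over all 30 arrays left 9 replication falls, 10 mitotic rises, 5 WNT falls and 9 ribosome biogenesis rises. With array medians subtracted, 12 mitotic and 11 ribosome biogenesis genes rose. Leaving out 1 array gave 21 to 23 histone falls, 14 to 24 replication falls, 11 to 23 mitotic rises, 8 to 13 mitotic falls, 5 to 8 WNT falls and 11 to 18 ribosome biogenesis rises. The contrast with KM12C gave 699 to 2460 calls and that with HCT-116 2067 to 2748. The cause of these changes was not tested.

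Same-numbered arrays had deviations that correlated at 0.23, 0.03 and 0.16, and treated arrays 2 and 3 correlated best with another number. With 3 arrays per arm, these values cannot show whether the numbers pair the samples. With the replicate block 5161 probe sets were called, and 187 of the 199 named genes that were called kept their call. Of those 199, 144 kept it in the fit over all 30 arrays, 83 under the plain test and 154 to 182 with 1 array left out. All 6 such fits called 147 of them, and none called *RBL2* and *CXCL16*. Only 1 of the 6 fits called 19 more, so these calls are fragile. They were *AHR*, *BIRC5*, *CD58*, *CDH1*, *CEACAM5*, *CHAF1A*, *CHUK*, *CRLF3*, *IRF1*, *LGALS9*, *MCL1*, *MT1F*, *MT1M*, *MYC*, *PHGDH*, *TIPARP*, *TNIK*, *TNKS2* and *VIL1*. Another probe set of *BCL2L11* gave 0.54, opposite in sign and not called, and the cause was not tested. Probe sets near the array medians of 4.25 to 4.46 may lie close to background, which the values used here do not give.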

Other observations

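Xenobiotic and metal genes gave a few further calls in HT-29. Of 10 genes of the aryl hydrocarbon receptor and its targets, 3 rose, the cytochromes *CYP1B1* (1.02) and *CYP1A1* (0.72), which oxidise foreign compounds, and *TIPARP* (0.50), and the receptor gene *AHR* fell by 0.59. Of 16 genes of metal handling, the metallothioneins *MT2A* (0.81), *MT1F* (0.58) and *MT1M* (0.49) and their activator *MTF1* (0.60) rose, and the zinc exporter *SLC30A1* fell by 1.39. The metallothioneins are close copies of each other and may share probes. *TIPARP*, *AHR*, *MT1F* and *MT1M* were each called in only 1 of the 6 fits that left out an array.

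Among lipid synthesis and differentiation genes the shares called were near that of all genes (9.84%) or above it. Of 28 sterol and fatty acid genes 25 lay below 0, none rose and 3 fell, *INSIG1* (−0.95), *SCD* (−0.86) and *SREBF1* (−0.63). Of 36 intestinal differentiation genes 3 rose, *TFF1* (1.07), *TFF2* (0.55) and *CEACAM5* (0.51), and 3 fell, *VIL1* (−0.76), *MUC13* (−0.60) and *CEACAM1* (−0.59). *CEACAM5* and *VIL1* were each called in only 1 of the 6 fits that left out an array. Of 26 YAP target genes 3 rose and 2 fell, *TEAD2* (−1.36) and *NUAK2* (−1.11).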
